A study of Mus musculus with 18 samples.

Results

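The comparison described here is that of islets from NOD mice with islets from NOD.B10 mice at 10 days of age, which 6 of the 18 arrays of the series made. The members are the arrays whose titles name 10-day-old NOD islets. Each array set the islet RNA of 1 female NOD mouse, labelled with Cy5, against RNA pooled from the islets of 6 female NOD.B10 mice of the same age, labelled with Cy3, and 300 ng of total RNA was labelled for each side. NOD mice develop autoimmune diabetes spontaneously. NOD.B10 is a congenic strain that carries another major histocompatibility complex (MHC) and stays free of diabetes. The labels name no treatment, both strains were bred in 1 facility, and islets were freed by collagenase digestion. The other arrays made the same comparison at 4 weeks (6 arrays) and 12 weeks (6 arrays), each age with a pool of its own. The pool of an age is 1 control sample, so the spread of the control mice does not enter any test, and no dye swap was made.

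A digested islet preparation holds endocrine cells with some vessels, stroma, ducts, acinar tissue and resident immune cells. At 10 days the mouse endocrine pancreas is still growing: beta cells divide, and the factors that drive fetal growth, among them insulin-like growth factor 2, are being turned off. Imprinted genes, which are read from only the maternal or the paternal copy, include many regulators of fetal growth. Notch, WNT, hedgehog, TGF-beta and FGF signals pattern the pancreas before birth and then act mostly between islet cells, vessels and stroma. Heat shock proteins hold other proteins in a folded state, and their genes are switched on together by heat shock factors when proteins unfold.

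All values below are log2 ratios of NOD over NOD.B10 after background correction and loess normalization within each array, with positive values where the NOD side was brighter. A gene was called higher or lower when limma's moderated test of the mean ratio against 0 over 6 arrays had an adjusted p under 0.05 (Benjamini-Hochberg over all probes that entered), and counted as 2-fold where the log2 ratio was also 1 or more in size. A gene is represented by its brightest probe. Means are given ± SD over the 6 mice.

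The label was checked against marker genes. Of 35 measured islet endocrine markers 32 were well above background in both channels on 6 of 6 arrays, as were 26 of 27 mesenchymal and 19 of 19 endothelial markers. The share of probes well above background was 49.1% to 62.9% for the NOD mice and 44% to 48% for the pool. Pairs of 10-day arrays had correlations of 0.41 to 0.89 over the probes that entered. Mice 1, 3 and 5 correlated with each other by 0.74 to 0.89 and mice 2, 4 and 6 by 0.78 to 0.83. Mouse 6 also correlated with mice 1, 3 and 5 by 0.77, 0.69 and 0.66, against 0.41 to 0.51 for mice 2 and 4. Correlations of 10-day arrays ran from −0.36 to 0.47 with 4-week arrays and from −0.21 to 0.44 with 12-week arrays. Since the labels give the dye of each side, no array was turned.

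Of 16830 genes measured at 10 days, 4200 were higher (25%) and 3878 lower (23%) in NOD islets, so a share near these figures is the background for any gene family. By 2-fold or more, 288 genes were higher (1.71%) and 420 lower (2.5%). Higher genes made up 40.7% of the 2-fold calls, against 79.6% when each array was only centred on its median (788 higher and 202 lower) and 56% with the scanner's processed signals (1533 and 1206). Under median centring 4940 genes were called higher and 3757 lower. On slide 1 alone (mice 1 to 4) the calls were 2029 and 2182, and on slide 2 alone (mice 5 and 6) 1237 and 1062. The median over all genes was 0.012. List medians set against alternative settings are given relative to it. Fewer cells of a type and less RNA per cell cannot be told apart in these bulk samples.

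Marker genes set the frame for the families that follow. The islet endocrine list had 31 of 35 members higher and 0 lower with a median of 1.54, and its mean ran from 0.66 to 1.79 across the mice, lowest in mice 2 and 4. The mesenchymal list had 22 of 27 lower and 0 higher with a median of −1.29, and its mean ran from −2.11 to −0.67. The endothelial list had 12 of 19 lower and 0 higher with a median of −0.47, with means between −1.19 and −0.25. Of the lymphocyte markers 2 of 13 were lower and 0 higher, and Cd79a and Pax5, which mark B cells, did not pass the filter on dim probes.

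The 10 genes on no marker list with the highest ratios are given first. Scg5, which encodes the helper protein 7B2 of a prohormone convertase, ran from 1.22 through a median of 2.46 to 2.87 and was 4.54-fold higher (2.18 ± 0.64, adjusted p = 0.00033). Mlxipl, which encodes the glucose-responsive transcription factor ChREBP, ran from 1.10 through 2.06 to 2.28. Frzb, a secreted WNT antagonist, ran from 1.08 through 2.01 to 2.42. In each of these 3 genes all 6 mice were above 0 and mice 2 and 4 were the lowest. Zcchc18, 1700086L19Rik and B830017H08Rik had ratios of 1.86 ± 0.77, 2.07 ± 0.77 and 1.93 ± 0.48 with mice 2 and 4 lowest on each. A dimmer probe of B830017H08Rik, never well above background in the pool, had 0.02 ± 0.08. The chaperone genes Dnaja4, Hsph1 and Dnaja1 and a probe without a gene name, A_51_P182813 (2.02 ± 1.39), completed the 10 highest, with another order of mice that is described with the heat shock proteins.

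The 10 genes on no marker list with the lowest ratios included Igf2 and Mest, which are described with the imprinted genes. Vegfd, a growth factor for lymphatic vessels, ran from −3.17 through −2.79 to −2.08 and was 6.28-fold lower (−2.65 ± 0.43, adjusted p = 6.8e-05); its NOD signal was well above background on 5 of 6 arrays. Rmrp, the RNA of the ribonuclease MRP, ran from −3.01 through −2.57 to −1.27. Slit2, a guidance protein, ran from −2.49 through −2.22 to −1.66. All 6 mice were below 0 on these genes, and mouse 2 was the mildest on Rmrp. The matrix genes Fbln1 and Fbln5 had −2.28 ± 0.46 and −2.14 ± 0.90, and the cadherin Cdh16 had −2.20 ± 0.25. Reg3b, a secreted protein of stressed acinar cells, had −2.17 ± 0.73, and 1810009J06Rik had the widest spread of the group, from −4.29 to −0.48. The acinar list, whose mean ran from −1.5 to 0.67, had 2 of 21 members higher and 2 lower, and its part in the ratio of Reg3b was not tested.

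Imprinted genes of fetal growth were among the most reduced transcripts. The H19 probe that gave the values below is shown because H19 is a noncoding RNA, made from the same imprinted locus as Igf2, and because its transcript is also the precursor of a microRNA. The probe lies at chr7:149761769-149761828 on the minus strand of mm9, and its 60 bases are printed 5′ to 3′ as the scanner file gives them. The mature microRNAs come from RefSeq (GRCm38.p6), with the seed, bases 2 to 8, in capitals; they were not measured on these arrays.
H19 probe: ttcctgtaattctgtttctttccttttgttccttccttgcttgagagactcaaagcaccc
mmu-miR-675-5p: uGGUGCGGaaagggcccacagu
mmu-miR-675-3p: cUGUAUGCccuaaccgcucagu

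Igf2, the fetal insulin-like growth factor, ran from −2.91 through −2.44 to −2.08 in the 6 mice and was 5.57-fold lower (−2.48 ± 0.30, adjusted p = 6.4e-05). On mm9 its brightest probe lies at chr7:149836673-149836709, that of Mest at chr6:30698279-30698338 and that of Cdkn1c at chr7:150644753-150644812. Every mouse was at least 4-fold below the pool on this gene, and both of its measured probes were called lower. H19 ran from −1.94 through −1.72 to −1.13 and was 3.15-fold lower (−1.65 ± 0.28, adjusted p = 7.7e-05), with mouse 4 the mildest on both Igf2 and H19. Mest, a paternally expressed hydrolase of mesoderm, ran from −3.24 through −2.42 to −2.20 (−2.53 ± 0.40, adjusted p = 6.8e-05). Cdkn1c, the cell cycle inhibitor p57, which lies in the imprinted cluster next to Igf2, ran from −1.26 through −1.01 to −0.67. Dlk1, a paternally expressed membrane protein of the Notch ligand family, ran from −1.85 through −1.26 to −0.53 (−1.25 ± 0.48, adjusted p = 0.00096). No mouse reached 0 on any of these 5 genes.

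**Figure D1:**
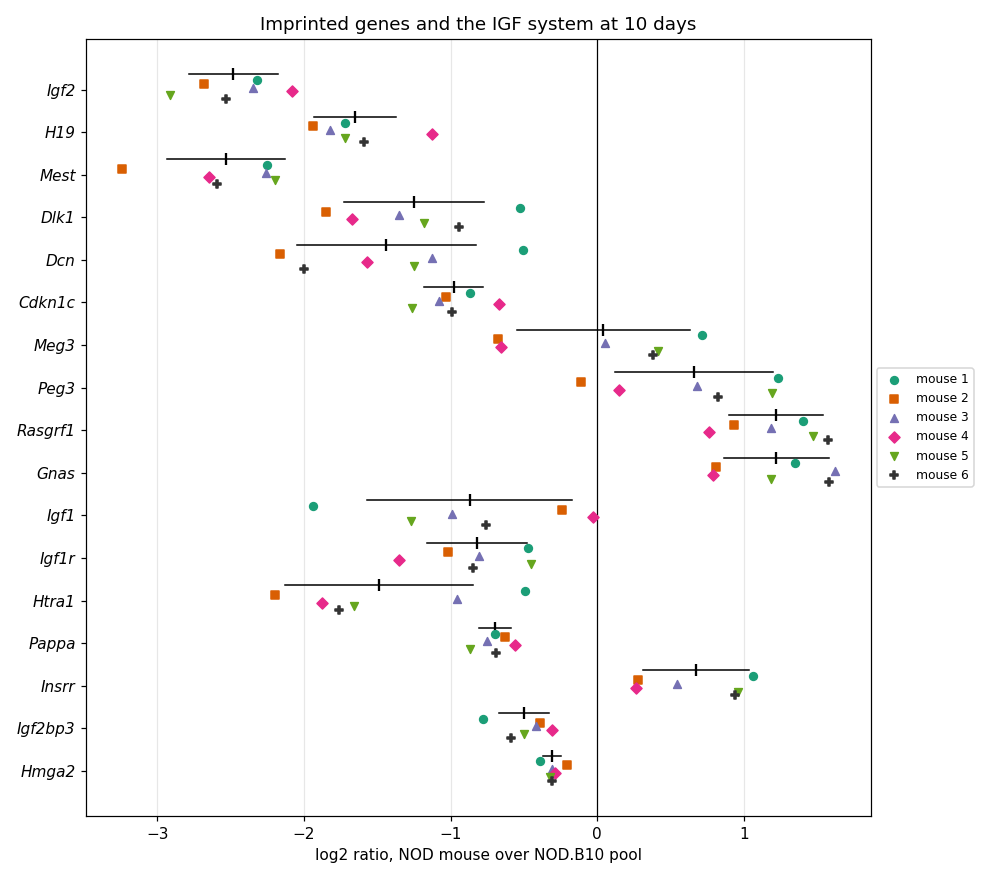
Log2 ratio of each of the 6 NOD mice over the NOD.B10 pool (horizontal axis) for imprinted genes and members of the IGF system (vertical axis), with the mean and SD as a black line. Igf2, H19 and Mest lie between −3.24 and −1.13 in every mouse, Meg3 lies on both sides of 0, and Rasgrf1 and Gnas lie above 0 in every mouse.

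The imprinted list did not move as a whole. Of its 42 measured members (of 49 on the array), 16 were lower (38.1%, background 23%) and 8 higher (19%, background 25%), and the median relative to all genes was −0.04, turning to 0.14 under median centring, where 14 were higher and 13 lower. Among maternally expressed genes 8 of 17 were lower and 1 higher, and among paternally expressed genes 6 of 19 were lower and 5 higher. Meg3, the maternally expressed noncoding RNA of the Dlk1 locus, was not called on its brightest probe (0.04 ± 0.59, adjusted p = 0.9), with mice 2 and 4 below 0 and the others above, while 2 of its 5 probes were called higher (0.81 ± 0.54 and 0.60 ± 0.47). Peg3, a paternally expressed zinc finger gene, had 0.66 ± 0.54 (adjusted p = 0.022, above 0 in 5 of 6 mice); without mouse 1, 3, 5 or 6 it was not called (adjusted p from 0.0541 to 0.0659). Rasgrf1 and Gnas, which act in Ras and in cyclic AMP signalling, were each 2.33-fold higher, and of the 5 Gnas probes 2 were called. Dcn, a matrix proteoglycan imprinted in placenta, had −1.44 ± 0.61 and is also on the mesenchymal marker list, whose mean moved with it; the part of stroma in the ratios of Igf2, H19, Mest and Dlk1 was not tested. Mice 2 and 4, which were lower than mice 1 and 3 on the mesenchymal list, had −2.68 and −2.08 for Igf2, against −2.32 and −2.35 in mice 1 and 3. For H19 they had −1.94 and −1.13, against −1.72 and −1.82. On the other 2 genes both were lower than both of the others: Mest had −3.24 and −2.65 against −2.25 and −2.26, and Dlk1 −1.85 and −1.67 against −0.53 and −1.35. Mouse 6 had −1.75 on the mesenchymal list and mouse 5 had −1.11. Mouse 6 was higher than mouse 5 on Igf2 (−2.53 against −2.91), H19 (−1.59 against −1.72) and Dlk1 (−0.94 against −1.18). It was lower on Mest (−2.59 against −2.20).

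In the IGF system 10 of 22 measured members were lower (45.5%) and 1 higher, with a median of −0.34, below the median of all genes in 17 of 17 alternative settings. The ligands, Igf2 and Igf1, were both lower. Igf1 ran from −1.94 through −0.88 to −0.03, and 1 of its 4 probes was called; the call was lost under median centring (adjusted p = 0.0804), with the mean of its probes (0.0776), and without mouse 3 or mouse 5 (0.0505 and 0.0541). The receptor Igf1r had −0.82 ± 0.34 (2 of 4 probes called lower). Htra1, a secreted protease that cleaves IGF binding proteins, ran from −2.20 through −1.71 to −0.49. Pappa, another protease that frees IGF from its binding proteins, had −0.70 ± 0.11. The member that rose was Insrr, the insulin receptor-related receptor (0.67 ± 0.36, adjusted p = 0.0042).

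The LIN28 and let-7 axis controls the passage from fetal to adult programmes in many cells, and let-7 represses growth genes. Of its 23 measured members 9 were lower (39.1%) and 5 higher (21.7%), with a median of −0.18; under median centring 6 were lower and 5 higher, and the median relative to all genes moved from −0.20 to −0.01. Lin28b and Igf2bp1 did not pass the filter on dim probes. Igf2bp3, an RNA-binding protein that stabilises fetal transcripts, had −0.50 ± 0.17, and Hmga2, a chromatin protein and let-7 target, had −0.31 ± 0.06 (adjusted p = 0.0013); all 6 mice were below 0 on both. Myc was 2.29-fold lower (−1.2 ± 0.52) and Arid3a had −0.84 ± 0.24. Cyclin D2 (Ccnd2), the main D cyclin of beta cell replication, had 0.94 ± 0.73, with mouse 4 below 0, and was not called without mouse 6 (adjusted p = 0.0508). Nras had 0.62 ± 0.43 from 1 called probe of 3, with all 6 mice above 0, and was not called with the mean of its probes (adjusted p = 0.0733).

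Developmental signalling pathways leaned to lower levels in NOD islets. Notch works by contact between neighbouring cells: ligands on 1 cell cut loose the receptor's inner part on the next, which joins Rbpj and switches on Hes and Hey genes. Of 25 measured Notch members 15 were lower (60%, background 23%) and 0 higher (background 25%), with a median of −0.38. The receptor Notch1 ran from −1.28 through −1.18 to −1.03 and was 2.22-fold lower (−1.15 ± 0.10, adjusted p = 6.4e-05), the tightest of the receptors across the mice. Notch2 ran from −1.69 through −1.16 to −0.84, and Notch3 from −1.98 through −0.86 to −0.30. The effectors Heyl and Rbpj had −1.63 ± 0.49 and −0.69 ± 0.16, and all 6 mice were below 0 on each. By role, 4 of 7 receptors and fringe genes, 3 of 6 ligands and 8 of 12 effectors were lower.

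Hedgehog ligands bind Patched receptors and release Smoothened, which drives Gli factors. Of 13 measured members 9 were lower (69.2%) and 1 higher, with a median of −0.44. Dhh, the ligand made by Schwann and endothelial cells, ran from −2.75 through −1.69 to −0.64 and was 2.93-fold lower (adjusted p = 0.0032). Smo ran from −1.44 through −1.24 to −0.83 on its brightest probe, while its other probe, dim in both channels, had −0.12 ± 0.12. The co-receptors Cdon and Gas1 had −0.94 ± 0.21 and −0.90 ± 0.35. All 6 mice were below 0 on each of these 4 genes. The member called higher was the receptor Ptch1 at 0.13 ± 0.06 (adjusted p = 0.048), but its pool signal was never well above background, and the bound on its ratio is at least 1.02-fold; under median centring it had −0.46. Its call was lost with scaling between arrays (adjusted p = 0.0669), without mouse 1, 3, 4, 5 or 6 (0.0762 to 0.131) and on each slide alone (0.271 and 0.281). The antagonist Hhip had −0.22 ± 0.18 (adjusted p = 0.039), a call that was lost in 10 alternatives (adjusted p from 0.0519 to 0.245).

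WNT ligands act through Frizzled and LRP receptors and beta-catenin. Of 54 measured members 32 were lower (59.3%) and 6 higher (11.1%), with a median of −0.27. The receptor Fzd1 ran from −2.30 through −1.76 to −1.29 and was 3.42-fold lower (−1.77 ± 0.44, adjusted p = 2e-04). The co-receptor Lrp5 ran from −2.01 through −1.56 to −1.13. Nkd1, an antagonist and target of the pathway, ran from −2.37 through −1.82 to −0.70. Mice 2, 4 and 6 had the lowest ratios on Fzd1 and Nkd1. The factor Tcf7l1 had −1.37 ± 0.21. By role, 10 of 16 receptors, 8 of 12 inhibitors, 7 of 13 ligands and 7 of 13 effectors were lower, and the secreted inhibitor Frzb, described above, went the other way.

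Of 49 TGF-beta and BMP members 19 were lower (38.8%) and 3 higher (6.12%), with a median of −0.21. Fstl1, a secreted BMP antagonist of stroma, ran from −2.46 through −1.68 to −0.76, and Id1, a direct target of BMP signals, from −2.28 through −1.49 to −0.86. The ligands Tgfb3 and Tgfb2 had −1.29 ± 0.37 and −1.2 ± 0.45, and 7 of 12 ligands were lower. Of 24 FGF and PDGF members 13 were lower (54.2%) and 0 higher, with a median of −0.25. The FGF receptor Fgfr4 ran from −1.75 through −1.52 to −1.08, and its 3 probes were all called lower. Spry2, a feedback inhibitor that FGF signals switch on, had −1.37 ± 0.51, and 4 of 4 inhibitors of the list were lower. The other Spry2 probe had −0.1 ± 0.13 and was not called. The ligands Fgf18 and Pdgfc had −1.26 ± 0.34 and −1.22 ± 0.24.

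Guidance cues steer axons and vessels, and 29 of their 51 measured genes were lower (56.9%) and 4 higher (7.84%), with a median of −0.28. Beside Slit2, the ligand Sema5a had −1.28 ± 0.49, Sema3g, made by endothelium, had −1.21 ± 0.59, and the receptor Epha2 ran from −2.40 through −0.95 to −0.14. Of 17 retinoid genes 9 were lower (52.9%) and 1 higher, with a median of −0.30. Rxra, a nuclear receptor, had −0.91 ± 0.32, and Rarres2, which encodes chemerin, had −1.10 ± 0.89, a call lost without mouse 4 or 6 (adjusted p = 0.051 and 0.0623). The single member that rose was Rbp4, the plasma retinol carrier, which was 3.43-fold higher (from 0.82 through 2.08 to 2.32), again with mice 2 and 4 lowest.

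Transcription factors of the Sox and Gata families and Hox genes followed the same side. Of 17 Sox and Gata genes 8 were lower (47.1%) and 0 higher, with Sox7 at −1.21 ± 0.36, Sox17 at −1.09 ± 0.36, Gata6 at −0.92 ± 0.23 and Sox6 at −0.83 ± 0.24. Sox7 and Sox17 are known from endothelium, and 4 of the 17 are also on marker lists. Of 24 Hox genes and cofactors 9 were lower (37.5%) and 1 higher, against 14 and 2 under median centring. Hoxb5 had −0.61 ± 0.16, Hoxa2 −0.52 ± 0.12 and Hoxb2 −0.47 ± 0.26, with all 6 mice below 0, and Hoxb7 had −0.66 ± 0.57 with mouse 5 at 0.08, a call lost without mouse 1, 2, 4 or 6 (adjusted p from 0.0616 to 0.0768). Of 39 cadherins, claudins and connexins 14 were lower (35.9%) and 4 higher (10.3%); next to Cdh16, the lowest were the endothelial genes Gja5, Cdh5 and Cldn5 at −1.82 ± 1.12, −1.69 ± 0.48 and −1.26 ± 0.43.

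The medians of the Notch, hedgehog, WNT, TGF-beta and BMP, FGF and PDGF, guidance, retinoid, Hox and Sox lists lay below the median of all genes in 17 of 17 alternative settings, median centring included. The Notch mean was −0.67 and −0.65 in mice 2 and 4, which had −2.11 and −1.80 on the mesenchymal list, and −0.26 and −0.29 in mice 3 and 5, which had −0.96 and −1.11. Mice 6 and 1 had Notch means of −0.5 and −0.4, with −1.75 and −0.67 on the mesenchymal list. Mice 2, 4 and 6 also had the lowest means on the WNT, TGF-beta and BMP, guidance, retinoid and Hox lists. The WNT mean was −0.44, −0.42 and −0.41 in them and −0.22, −0.21 and −0.25 in mice 1, 3 and 5. The hedgehog, FGF and PDGF, and Sox and Gata lists had another order of mice. The FGF and PDGF mean was −0.55 and −0.54 in mice 5 and 2, −0.42 in mouse 4 and −0.35 in mouse 1. The Sox and Gata mean was −0.53 in mouse 4 and −0.46 in mice 1, 2 and 5. The part of stroma and endothelium in these ratios was not tested.

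**Figure D2:**
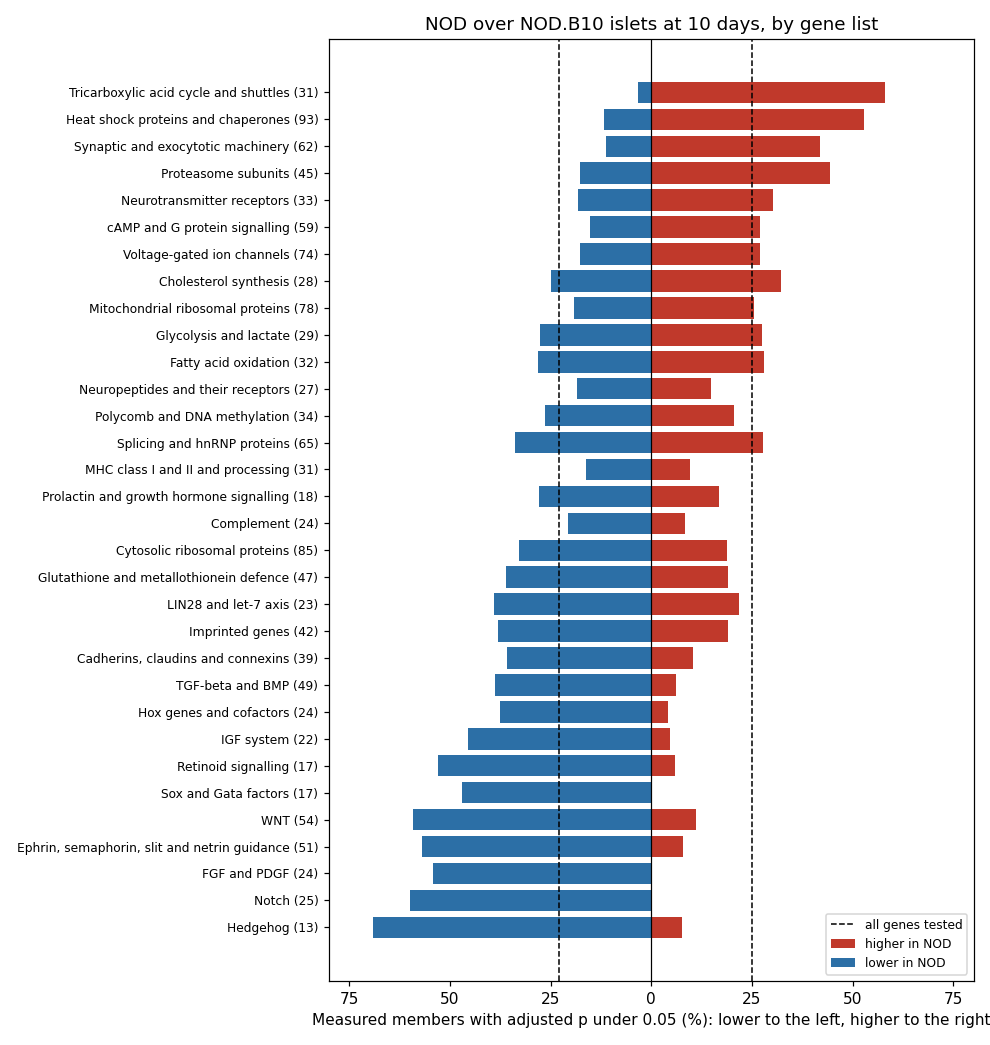
Share of the measured members of each gene list (number in brackets) that was called higher (red, to the right) or lower (blue, to the left) in NOD islets at 10 days, in percent, with dashed lines at the shares over all genes tested (25% higher, 23% lower). Hedgehog, Notch, FGF and PDGF, guidance and WNT genes extend past the line for lower, and tricarboxylic acid cycle, chaperone, proteasome and exocytotic genes past the line for higher.

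The machinery of regulated secretion leaned to higher levels. Hormone granules fuse with the membrane through SNARE proteins, after Rab GTPases bring them there and synaptotagmins sense calcium. Of 62 measured members 26 were higher (41.9%, background 25%) and 7 lower (11.3%, background 23%), with a median of 0.15 that stayed above that of all genes in 17 of 17 settings. Syt13, an atypical synaptotagmin of endocrine cells, ran from 0.79 through 2.05 to 2.66 and was 3.45-fold higher (adjusted p = 0.0015). Rab27a, which docks insulin granules, ran from 0.47 through 1.94 to 2.22, and Sytl4 (granuphilin), its partner on the granule, from 0.76 through 1.51 to 2.00. All 6 mice were above 0 on these genes, and mouse 4 was the lowest on Syt13 and Rab27a. The SNARE genes Stx7 and Vamp4 had 1.30 ± 0.37 and 1.15 ± 0.31, and Rab3b had 1.07 ± 0.52. Both this list (means of 0.14 and 0.13) and the islet endocrine list were lowest in mice 2 and 4, and the part of islet cell share in these ratios was not tested.

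Ion channels as a family stayed near background. The list of voltage-gated channels also holds other potassium channels, such as Kcnj8, Kcnj11 and Kcnk16. Of its 74 measured genes (of 128 on the array) 20 were higher (27%) and 13 lower (17.6%). Their median relative to all genes was 0.02, turning to −0.25 under median centring. Scn3b, a sodium channel subunit, had 0.93 ± 0.50, and Kcnk16, the potassium channel TALK-1 of beta cells, had 0.90 ± 0.36. Kcnj11, the pore of the ATP-sensitive potassium channel that couples glucose to insulin release, had 0.56 ± 0.39, with mouse 4 at −0.10. On the lower side, Kcnj8, the channel of pericytes and smooth muscle, ran from −2.13 through −1.52 to −0.43. Median centring left 12 members higher and 28 lower.

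Of 33 measured neurotransmitter receptors 10 were higher (30.3%) and 6 lower (18.2%), with a median at −0.03 relative to all genes that turned to 0.12 with the deposited values and was −0.31 under median centring, where 4 were higher and 13 lower. The glutamate receptor Gria2 had a pool signal that was never well above background. The bound of at least 2.13-fold on its mean ratio is the measured mean itself (1.09 ± 0.35, adjusted p = 0.00053). Single mice ran from 0.55 to 1.34, and the gene passed the filter through the NOD side alone. Grin2c, an NMDA receptor subunit, ran from 0.50 through 1.33 to 1.80. The GABA receptor subunits Gabrp and Gabra4 had −1.60 ± 0.50 and −0.92 ± 0.67, with all 6 mice below 0. Of 27 neuropeptides and their receptors 4 were higher (14.8%) and 5 lower (18.5%). Ucn3, a peptide of mature beta cells, ran from 0.51 through 1.23 to 1.72, and Gipr, the receptor of the incretin GIP, had 1.15 ± 0.40 with the pool well above background on 2 of 6 arrays. Nucb2, the precursor of nesfatin, had 0.98 ± 0.37, and Grp had −1.16 ± 0.50 with the NOD signal well above background on 4 of 6 arrays. Npy and Gast, peptides of the immature pancreas, were not called (0.23 ± 0.47 and 0.13 ± 0.23, adjusted p = 0.27 and 0.23), although Npy was under median centring (0.51, adjusted p = 0.0413), which turned Gast to −0.10.

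Of 59 cAMP and G protein genes 16 were higher (27.1%) and 9 lower (15.3%), with a median of −0.03 relative to all genes whose sign was not kept in 3 of 17 settings. Pde4a, which breaks down cAMP, ran from −2.54 through −2.05 to −1.88 and was 4.33-fold lower (−2.11 ± 0.23, adjusted p = 6.4e-05), a narrow range for so large a ratio. The regulators of G protein signalling Rgs16, Rgs2 and Rgs9 had 1.47 ± 0.73, 1.07 ± 0.30 and 1.07 ± 0.36. The other Rgs2 probe had −0.05 ± 0.11 and was not called. Of 18 prolactin and growth hormone signalling genes 5 were lower (27.8%) and 3 higher (16.7%), against 3 and 7 under median centring. Prolactin receptor signals switch on Cish and Socs genes, which then damp them. Socs1 ran from −2.44 through −1.56 to −0.82, and Cish from −1.77 through −1.25 to −1, below 0 in 6 of 6 mice. The receptors themselves, Prlr (0.27 ± 0.28) and Ghr (−0.02 ± 0.24), were not called (adjusted p = 0.057 and 0.9); Prlr was called in 6 alternatives, and the sign of Ghr was not kept in 6, median centring among them.

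Many heat shock proteins rose, in an order of mice unlike that of the islet genes. This list was assembled after its genes had been seen among the 10 highest, so its count is a description. Of 93 measured chaperones 49 were higher (52.7%, background 25%) and 11 lower (11.8%, background 23%), and 12 of the higher ones differed by 2-fold or more (background 1.71%), with a median of 0.26 that stayed above that of all genes in 17 of 17 settings. On slide 1 alone 31 were called higher and on slide 2 alone 12. All 11 measured chaperonins were higher, as were 7 of 14 HSP70 and HSP110 genes, 2 of 3 HSP90 genes and 20 of 41 J proteins, while 3 of 8 small heat shock proteins were lower and 1 higher. Heat shock factors are known to bind repeats of the letters GAA in alternating direction. The promoters of 4 chaperone genes called higher are shown as examples of such letters; they were chosen after the windows had been searched, because each holds a match, and where a gene has several windows 1 with a match is printed. Each line gives the 150 bases before the RefSeq start site (GRCm38.p6), on the gene's strand, with every match of GAANNTTC or TTCNNGAA in capitals; each motif is its own reverse complement, so both strands are covered, and matches can overlap.
Hsph1, chr5:149636337-149636486, minus strand: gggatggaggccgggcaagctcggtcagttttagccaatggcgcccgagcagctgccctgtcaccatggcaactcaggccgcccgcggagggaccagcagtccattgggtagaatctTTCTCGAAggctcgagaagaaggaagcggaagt
Hspa1a, chr17:34972157-34972306, minus strand: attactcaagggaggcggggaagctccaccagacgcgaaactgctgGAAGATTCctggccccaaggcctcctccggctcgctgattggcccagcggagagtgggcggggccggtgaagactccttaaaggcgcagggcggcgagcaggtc
Hspe1, chr1:55087998-55088147, plus strand: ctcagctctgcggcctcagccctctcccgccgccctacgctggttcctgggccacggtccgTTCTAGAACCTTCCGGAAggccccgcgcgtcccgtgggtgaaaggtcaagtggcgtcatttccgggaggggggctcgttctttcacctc
Dnaja1, chr4:40722318-40722467, plus strand: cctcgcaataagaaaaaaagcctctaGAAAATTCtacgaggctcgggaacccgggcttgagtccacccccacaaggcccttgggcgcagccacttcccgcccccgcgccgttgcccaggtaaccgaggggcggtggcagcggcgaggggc

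The Hspe1 window, which lies between Hspe1 and the divergent gene Hspd1, held 3 overlapping matches that start 89, 84 and 79 bases before the start site, and the other 3 windows held 1 each, at 33 (Hsph1), 104 (Hspa1a) and 124 (Dnaja1) bases. Of all 32851 promoter windows of this length 7.73% held 1 or more and 0.606% held 2 or more. Of the 75 measured chaperone genes with a window in the table, 13 held 1 or more in at least 1 of their windows and 5 held 2 or more. The shares count windows and the chaperone counts are of genes, which can have several windows. They therefore cannot be set against each other. A match of letters is a description and not a binding site.

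Dnaja4, a J protein that partners HSP70, ran from 1.39 through 2.15 to 2.95 and was 4.45-fold higher (2.15 ± 0.54, adjusted p = 2e-04). Its dimmer probe, never well above background in the pool, had 0.51 ± 0.31 and was also called higher. Hsph1 (HSP110), which resets HSP70, ran from 0.88 through 2.37 to 3.01 and was 4.10-fold higher. Dnaja1, another J protein, ran from 0.44 through 2.34 to 3.18 (1.93 ± 1.2, adjusted p = 0.0066). Mice 3 and 5 were the lowest 2 mice on each of the 3 genes, and on Dnaja1 they lay at 0.49 and 0.44 against 1.98 or more in the other 4. Hspa1a, the classical inducible HSP70, ran from 1.11 through 1.85 to 2.55, and its near-identical neighbour Hspa1b from 1.05 through 1.40 to 2.17, though probes may not tell the pair apart. Hspa8, the constitutive HSP70, had 1.34 ± 0.46, and Hspa4l had 1.19 ± 0.93, with mouse 3 at 0.01; Hspa4l was not called without mouse 6 (adjusted p = 0.0551).

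The mitochondrial chaperonin pair moved together: Hspd1 (HSP60) ran from 0.54 through 2.04 to 2.39 and Hspe1 (HSP10) from 0.18 through 1.2 to 2.02, with mice 3 and 5 lowest on both. Hsp90aa1, the inducible cytosolic HSP90, ran from 0.26 through 1.82 to 2.45, and the constitutive Hsp90ab1 had 0.83 ± 0.32. Dnajb1 ran from 0.35 through 1.10 to 2.03. The cytosolic chaperonin subunits Cct3, Cct6a and Cct7 had narrower ranges, at 0.97 ± 0.16, 0.80 ± 0.17 and 0.68 ± 0.12, and the second Cct3 probe, well above background on 3 NOD and 0 pool arrays, had 0.03 ± 0.14. Hspa5, the HSP70 of the endoplasmic reticulum, had 0.70 ± 0.44, and Hsp90b1, the HSP90 of that compartment, was not called (0.17 ± 0.25, adjusted p = 0.18) except under median centring (0.47, adjusted p = 0.0142) and with the mean of its probes (0.31, 0.036).

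**Figure D3:**
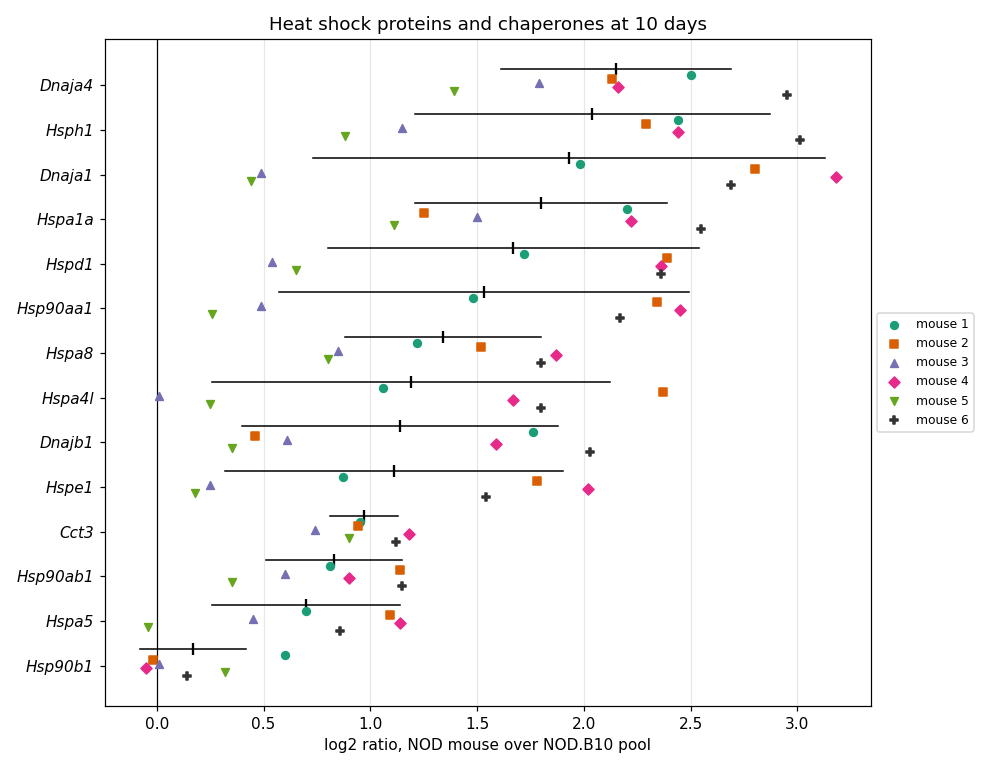
Log2 ratio of each of the 6 NOD mice over the NOD.B10 pool (horizontal axis) for 14 chaperone genes (vertical axis), with the mean and SD as a black line. Mice 3 and 5 are the lowest on Dnaja1, Hspd1, Hsp90aa1, Hspa8, Hspa4l and Hspe1, and Cct3 spans only 0.74 to 1.18.

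Across the mice the chaperone mean was 0.18 in mice 3 and 5 and 0.38 to 0.52 in the other 4. The islet endocrine mean was 1.59 and 1.78 in mice 3 and 5, and 0.80 and 0.66 in mice 2 and 4, in which the chaperone mean was 0.41 and 0.52. Slide means, over 4 arrays of slide 1 and 2 of slide 2, were 2.15 and 2.17 for Dnaja4 and 2.08 and 1.94 for Hsph1, but 2.11 and 1.56 for Dnaja1, 1.69 and 1.22 for Hsp90aa1 and 0.84 and 0.41 for Hspa5; the part of slide in these ratios was not tested.

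**Figure D4:**
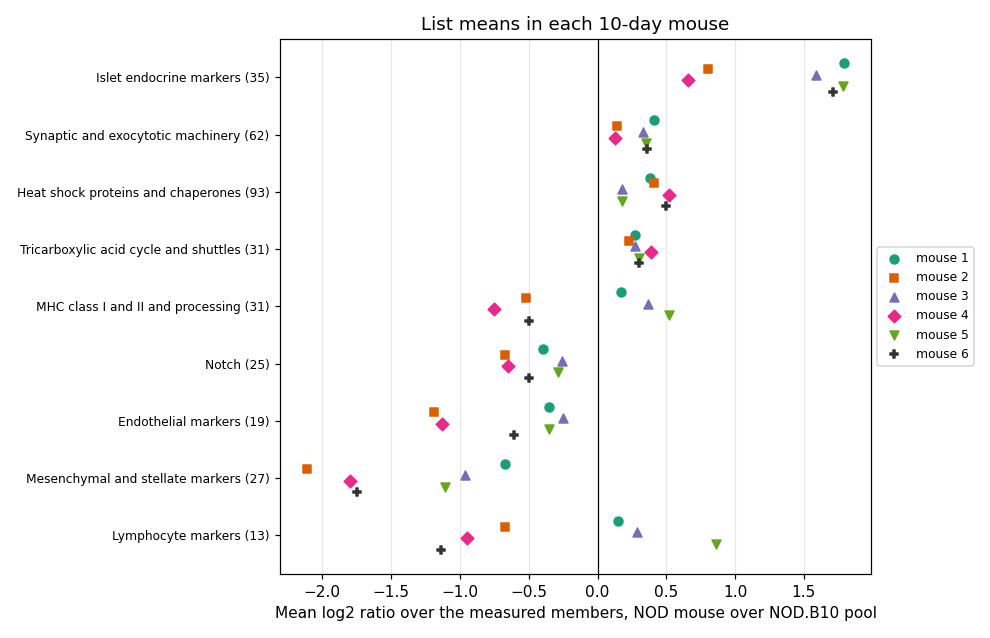
Mean log2 ratio over the measured members of 9 gene lists (vertical axis, number in brackets) in each of the 6 NOD mice over the NOD.B10 pool (horizontal axis). Mice 2 and 4 are the lowest on islet markers, mice 3 and 5 the lowest on chaperones, and mice 2, 4 and 6 lie below 0 on MHC genes and lymphocyte markers while mice 1, 3 and 5 lie above.

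Genes of the tricarboxylic acid cycle leaned to higher levels. The tricarboxylic acid cycle burns acetyl groups, and shuttles carry reducing power into mitochondria, which in beta cells feeds the ATP signal for secretion. Of 31 measured members 18 were higher (58.1%) and 1 lower (3.23%), with a median of 0.32 that stayed above that of all genes in 17 of 17 settings, and the mean of the list was nearly the same in each mouse (0.23 to 0.39). Suclg2, a subunit of succinyl-CoA ligase, ran from 0.55 through 0.97 to 1.78. Gpd2, the mitochondrial glycerol phosphate shuttle, ran from 0.09 through 1.19 to 1.41, with mouse 4 lowest. Sdha, of succinate dehydrogenase, had 0.86 ± 0.18 on its brightest probe, and all 3 of its probes were called higher. Idh3b, Sucla2 and Idh3a had 0.96 ± 0.22, 0.80 ± 0.11 and 0.65 ± 0.25. The other Sucla2 probe had 0.15 ± 0.22 and was not called.

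Other metabolic lists held both directions. Of 29 glycolysis genes 8 were higher and 8 lower (27.6% each), against 13 and 5 under median centring. Pfkfb2, which makes the activator of phosphofructokinase, ran from 0.83 through 1.45 to 1.78, Pfkm had 0.76 ± 0.33, and the lactate transporter Slc16a1, which beta cells keep low, had −0.73 ± 0.29 on its brightest probe, while 1 of its other probes was called higher. Hexokinase 2 (Hk2), likewise low in beta cells, had −0.79 ± 0.65, a call lost under median centring (adjusted p = 0.0847) and without mouse 3, 5 or 6 (0.0536 to 0.0599). Of 32 fatty acid oxidation genes 9 were higher and 9 lower (28.1% each), against 15 and 4 under median centring, with Hadh, an inhibitor of glutamate-driven insulin release, at 0.91 ± 0.35, Eci1 at 0.86 ± 0.20 and Slc25a20 at 0.67 ± 0.16. Pdk4, which closes the entry of pyruvate into the cycle, ran from −0.51 in mouse 2 to between 1.30 and 2.03 in the other 5.

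Of 28 cholesterol synthesis genes 9 were higher (32.1%) and 7 lower (25%), with a median of −0.03 relative to all genes, turning to 0.11 under median centring, where 2 were lower. The enzymes Fdft1, Sqle, Fdps and Hmgcs1 were higher, at 0.79 ± 0.20, 0.78 ± 0.40, 0.74 ± 0.19 and 0.51 ± 0.24. The other probes of Fdps and Hmgcs1 had 0.2 ± 0.29 and 0.09 ± 0.12 and were not called. Of 47 glutathione and metallothionein genes 17 were lower (36.2%) and 9 higher (19.1%), with a median of −0.17 relative to all genes, turning to 0.07 under median centring, where 4 were lower. Gpx3 was 2.39-fold higher (1.26 ± 0.45), while Gpx7, Mgst3 and Gpx8 had −1.16 ± 0.34, −0.76 ± 0.19 and −0.73 ± 0.42; Gpx8 lost its call under median centring (adjusted p = 0.057).

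Protein turnover also leaned up. The proteasome degrades tagged proteins in a core that regulatory particles cap. Of 45 measured subunits 20 were higher (44.4%) and 8 lower (17.8%), with a median of 0.18 that stayed above that of all genes in 17 of 17 settings. Under median centring 32 were higher and 2 lower. The regulatory particle held 14 of 27 higher and 2 lower, and the core 6 of 18 in each direction. Psmc4, an ATPase of the cap, ran from 0.70 through 0.75 to 0.82, the narrowest range among the named genes above 1.5-fold, and Psmc2, another of these ATPases, had 0.90 ± 0.10. The core subunits Psma4 and Psmb1 had 0.85 ± 0.18 and 0.74 ± 0.21, and Psmb10, an immunoproteasome subunit, had −0.84 ± 0.46.

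Ribosomal genes divided. Of 85 cytosolic ribosomal protein genes 28 were lower (32.9%) and 16 higher (18.8%), with a median of −0.08 relative to all genes, turning to 0.17 under median centring, where 26 were higher and 6 lower. Rpl4 was 2.77-fold higher (1.47 ± 0.38), Rpl5 and Rpl3 had 0.87 ± 0.25 and 0.83 ± 0.37, and Rpl22l1 had −0.88 ± 0.21. The other probes of Rpl5 and Rpl22l1 had −0.14 ± 0.35 and 0.05 ± 0.18 and were not called. That of Rpl22l1 was never well above background in the pool. Processed pseudogenes share sequence with many of these genes, so single values are uncertain. Of 78 mitochondrial ribosomal genes 20 were higher (25.6%) and 15 lower (19.2%), against 47 and 1 under median centring, from Mrps23 and Mrps31 at 0.75 ± 0.21 and 0.73 ± 0.14 to Mrpl52 and Mrpl34 at −0.87 ± 0.33 and −0.62 ± 0.17; Mrpl34 lost its call under median centring (adjusted p = 0.0828). The other Mrpl52 probe had −0.01 ± 0.35 and was not called. Of 65 splicing genes 22 were lower (33.8%) and 18 higher (27.7%), against 6 and 31 under median centring. Hnrnpl and Snrpc had −1.30 ± 0.20 and −0.95 ± 0.12, and Hnrnpc and Prpf6 1.22 ± 0.32 and 1.00 ± 0.12.

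Of 34 Polycomb and DNA methylation genes 9 were lower (26.5%) and 7 higher (20.6%), near the background. Uhrf1, which keeps methylation through replication, had −0.94 ± 0.33, with the cell cycle markers at 17 of 26 lower and 0 higher. Mbd2, a reader of methylated DNA, had 1.09 ± 0.22, and Gadd45b had −0.65 ± 0.26. Rbbp4, a histone-binding subunit, had 0.66 ± 0.59 on its brightest probe, which disagreed with 2 other probes called lower; its call was lost in 10 alternatives (adjusted p from 0.0561 to 0.333).

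The strains differ at the MHC, on chromosome 17. Class I and II molecules present peptides to T cells. Of 31 measured MHC and antigen processing genes 3 were higher (9.68%) and 5 lower (16.1%), below the background in both directions (8 were higher under median centring), and the mean of the list split the mice: 0.17, 0.37 and 0.52 in mice 1, 3 and 5, and −0.52, −0.75 and −0.50 in mice 2, 4 and 6. Lymphocyte markers split the same mice, at 0.15, 0.29 and 0.86 against −0.67, −0.95 and −1.14, and their part in the MHC values was not tested. H2-T22, a nonclassical class I gene, ran from −1.93 through −1.35 to −1.12, and all 3 of its probes were called lower. H2-Q1, another, ran from 0.92 through 1.52 to 1.91. H2-DMb1, which helps load class II molecules, ran from −2.77 through −1.74 to −0.76 on its brightest probe, while its other probe had 0.30 ± 0.62. H2-Q8 had −0.88 ± 0.54. H2-K1, a classical class I gene, had −0.64 ± 0.76 (adjusted p = 0.074) on its brightest probe, and 2 of its 4 probes were called lower; with the mean of its probes it was called (−1.11, adjusted p = 0.00454). The immunoproteasome gene Psmb8 was not called (0.68 ± 0.78, adjusted p = 0.068) but was in 7 alternatives, with adjusted p down to 0.0112 under median centring. Probes for these genes may bind the 2 strains' alleles unequally, which cannot be told apart from a difference in level at 10 days alone. At 4 and 12 weeks H2-Q1 had −0.61 and −0.42, and H2-T22 had −1.67 and −0.41. H2-DMb1 had −1.35 and 0.75, H2-Q8 −0.15 and 0.22, and H2-K1 −1.14 and 0.52. The part of unequal binding in these values was not tested.

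Between the first and last measured H2 gene on chromosome 17 (34111941 to 37411409 on mm9), 9 of 128 genes were called by 2-fold or more in either direction (7.03%), against 4.21% of all genes. They were D17H6S56E-5, Ddah2, H2-DMb1, H2-Q1, H2-T22, Hspa1a, Hspa1b, Ppp1r18 and Vars, so that 2 of the 9 are heat shock genes. Of 24 complement genes 5 were lower (20.8%) and 2 higher (8.33%). C3 had the widest spread on that list, with 0.21, 0.89 and 1.5 in mice 1, 3 and 5 and −1.92, −2.78 and −2.39 in mice 2, 4 and 6, and was not called (−0.75 ± 1.84, adjusted p = 0.35). Cfd (adipsin), an adipocyte product, had −1.44 ± 0.24, and the NOD side cleared background on 1 of 6 arrays; the adipocyte list had 5 of 6 members lower. Masp1 and Cfi had −0.96 ± 0.27 and −0.75 ± 0.16.

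The 10-day ratios were then set against the later ages, in a model of all 18 arrays. A dye bias of a gene that is the same on every array would cancel in these differences. The ratio differed between 10 days and 4 weeks for 9321 of 16830 genes (55.4%), 4971 higher and 4350 lower at 10 days, and between 10 days and 12 weeks for 8287 genes (49.2%), 3915 higher and 4372 lower. Each age has its own pool, so a change in the pool cannot be told apart from a change in the NOD mice. The 10-day arrays share a slide with 2 of the 4-week arrays and with none of the 12-week arrays.

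Igf2, H19 and Cdkn1c were low at 10 days and had ratios closer to 0 later. Igf2 had −2.48 at 10 days against −0.14 ± 0.34 at 4 weeks and 0.01 ± 0.08 at 12 weeks, differences of −2.34 (adjusted p = 5.8e-09) and −2.48 (adjusted p = 5.1e-09). On the slide that held 2 arrays of 10 days and 2 of 4 weeks the difference from 4 weeks was −2.62. H19 had 0.46 at 4 weeks and −0.04 at 12 weeks, with differences of −2.12 and −1.61. Cdkn1c had 0.42 and 0.08, with differences of −1.41 and −1.07. These 3 genes kept the direction and call of both differences in every alternative run, but the difference of H19 from 12 weeks was −0.79 under median centring. Dlk1 differed by −1.02 and −0.76, the former not called under median centring or on the shared slide (adjusted p = 0.0525 there). Meg3 and Peg3 went the other way, with 10-day ratios above the 4-week ones by 1.27 and 1.08 and above the 12-week ones by 0.79 and 0.81; the 12-week difference of Meg3 was not called under median centring.

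Igf2bp3 and Hmga2 had ratios near 0 at the later ages (0.10 and −0.03, and 0.03 and −0.02) and differed by −0.60 and −0.34 from 4 weeks and by −0.47 and −0.29 from 12 weeks; the difference of Igf2bp3 from 12 weeks turned to 0.10 under median centring, and that of Hmga2 was not called there (−0.02). On the shared slide the difference of Hmga2 from 4 weeks was not called (−0.43, adjusted p = 0.055). Prlr, at 0.27 at 10 days, had −0.93 at 4 weeks and −0.87 at 12 weeks (differences of 1.2 and 1.15, adjusted p = 5.2e-05 and 0.00011), the latter not called under median centring (0.51, adjusted p = 0.0634). Npy had −0.86 and −1.52 (differences of 1.10 and 1.75). Gast had 1.33 at 4 weeks and 0.10 at 12 weeks, so that the 10-day ratio was lower than the 4-week ratio by 1.2 on the log2 scale, and the difference from 12 weeks was not called (0.03, adjusted p = 0.86; −0.23 under median centring).

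Over lists, the developmental pathways set 10 days apart. The ratio was lower at 10 days than at 4 weeks for 10 of 13 hedgehog, 35 of 54 WNT, 17 of 24 FGF and PDGF, 28 of 51 guidance, 11 of 25 Notch and 14 of 17 Sox and Gata genes (background 25.8% for lower), and lower than at 12 weeks for 9, 33, 10, 25, 18 and 8 of them (background 26%). Their medians at the later ages lay between −0.10 and 0.18. The mesenchymal list had medians of 0.23 and 0.34 at 4 and 12 weeks, and the endothelial list −0.12 and 0.07. For cytosolic ribosomal genes 4 weeks was the age that stood apart, with medians of −0.06 at 10 days, 0.61 at 4 weeks and 0.09 at 12 weeks. Of these 85 genes 76 had a lower ratio at 10 days than at 4 weeks, and 27 than at 12 weeks. Chaperones had medians of 0.06 and 0.05 at the later ages, with the ratio higher at 10 days for 42 of 93 against 4 weeks (background 29.5% for higher) and 34 of 93 against 12 weeks (background 23.3%). Within this list the chaperonins had medians of 0.68 at 10 days, 0.33 at 4 weeks and 0.42 at 12 weeks. Of these 11 genes 7 had a higher ratio at 10 days than at 4 weeks, and 5 than at 12 weeks. Single chaperones differed at the later ages. Hspa1a and Hspa1b had −1.06 and −0.96 at 4 weeks but 1.5 and 1.44 at 12 weeks. Dnaja4, Dnaja1 and Hsp90aa1 had −0.26, −0.43 and −0.5 at 12 weeks. Proteasome subunits were higher in NOD islets by a like median at each age (0.18, 0.22 and 0.23). These comparisons share the 10-day arrays.

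**Figure D5:**
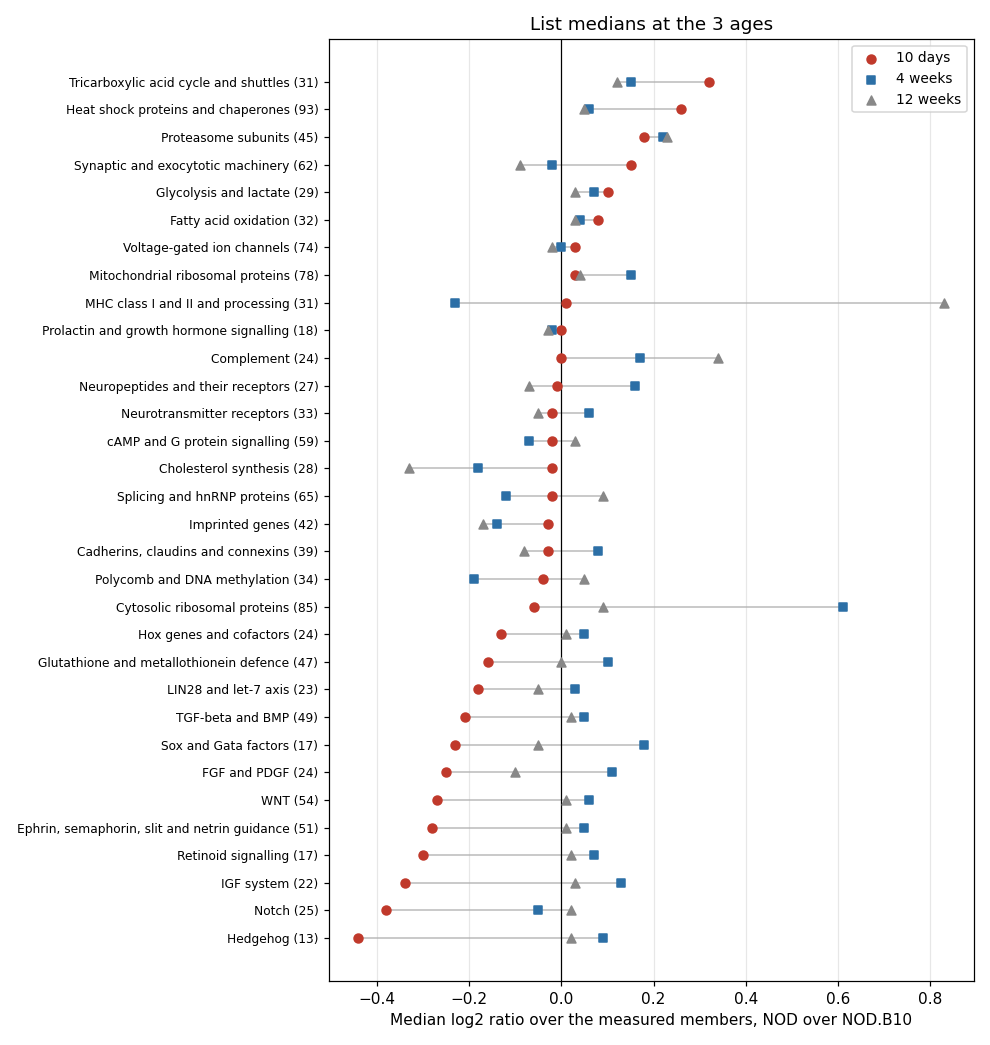
Median log2 ratio, NOD over NOD.B10, over the measured members of each list (vertical axis, number in brackets) at 10 days (red circles), 4 weeks (blue squares) and 12 weeks (grey triangles). Hedgehog, Notch and IGF medians lie at −0.44, −0.38 and −0.34 at 10 days and between −0.05 and 0.13 later, and ribosomal proteins stand at 0.61 at 4 weeks.

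A few genes differed between the strains by 2-fold or more in the same direction at all 3 ages. There were 6, of which 3 lie on chromosome 17, and the share of all measured genes on that chromosome was not counted. At 10 days, 4 weeks and 12 weeks D17H6S56E-5 had −2.01, −2.11 and −1.14. Zfp871 had −1.29, −1.58 and −1.23, and Zfand3 had −1.29, −1.35 and −1.29. On mm9 the D17H6S56E-5 probe (35134128 to 35134187) lies between the first and last measured H2 gene (34111941 to 37411409). The brightest probes of Zfp871 (32910629 to 32910688) and Zfand3 (30346773 to 30346832) lie outside that interval. Of the 3 probes of Zfp871, 1 was called at 10 days. The others were Sdc2, a syndecan of the cell surface (−1.71, −1.93 and −1.64, both probes called lower), Fosb, an immediate early gene (−1.71, −1.33 and −1.04), and the array entry NAP058332-1 on chromosome 13 (1.28, 1.19 and 1.19). Their ranges over the 6 mice at 10 days were narrow for Sdc2 (−2.01 to −1.48), Zfand3 (−1.55 to −1.10) and NAP058332-1 (1.08 to 1.38) and wide for Fosb (−2.92 to −1.03). A strain difference in the probe's target sequence or a dye bias of the probe would also repeat at each age, and these cannot be told apart from a difference in level here.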

How the data were processed

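Agilent 4x44K 2-colour arrays (design 014868) were scanned with Feature Extraction 10.7.3.1 (protocol GE2_107_Sep09), per the file headers. The deposited scanner files hold the mean spot intensity and median local background of each channel. A deposited value table holds log2 ratios, uncentred, red over green. They matched the log2 ratios of the scanner's processed signals, so the table is on the log2 scale. The scanner files also hold log10 ratios, which Feature Extraction computed before the files were deposited, per the file headers. A match of the value table to these log10 ratios was not tested. Here intensities were corrected with normexp (offset 50) and normalized by loess within each array in limma 3.58.1 (R 4.3.3), with control and outlier spots at weight 0, and spots of a probe were averaged. Of 41174 probes, 24020 were well above background in either channel on at least 3 of 6 arrays, representing 16830 genes; 5419 had more than 1 such probe, and 272 had called probes of opposite sign. Names came from RefSeq by accession (13353 genes), symbol (808) or synonym (133), and 2536 kept the array's name. Ratios were tested against 0 over 6 arrays with lmFit and eBayes (Benjamini-Hochberg over all probes), and ages were compared in a model of 18 arrays; the code was tested on simulated data. An unadjusted p under 0.05 held for 9380 genes. The number of arrays limits the precision. Alternatives were other background corrections, normalizations, filters, probe summaries, weights and blocks, each mouse left out, and each slide alone.

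The members and lists were chosen with earlier results of these data known, patterns that drew list members by name were narrowed after values were seen, and the chaperone list and the single-slide settings were added after values were seen. Genes were named by rule: outside the marker lists, the 10 highest and 10 lowest of the 2-fold calls with 1 sign in 6 of 6 arrays; up to 4 members of each list with the largest ratios; and a list of key genes. Other named chaperones, list members and genes 2-fold at all ages were chosen after their values were seen. A few genes that the rule names are not reported here.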

Additional observations from a re-analysis of the deposited data

Results flagged for a closer look

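Of 229 groups of 6 mice tested, 10 had a mouse farther from the others than Dixon's critical value allows; chance gives about 1 in 20. Values are given for 9 of them. Mouse 4 stood apart on 4 genes, at 0.47 for Rab27a (others 1.64 to 2.22), 0.09 for Gpd2 (0.96 to 1.41), −0.48 for Rbbp4 (0.53 to 1.05) and 1.40 for Idh3b (0.77 to 0.91). Mouse 1 stood apart at −1.37 for Fbln1 and 0.38 for Rpl5. Mouse 2 had −0.51 for Pdk4 and 0.01 for Ptch1, and mouse 3 had −1.19 for Snrpc. All values are log2 ratios.

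The difference of the log2 ratio between ages passed limma's test for 13 key genes against 4 weeks. The ratio was lower at 10 days for Igf2 (−2.34), H19 (−2.12), Cdkn1c (−1.41), Gast (−1.2), Dlk1 (−1.02), Igf2bp3 (−0.60), Hmga2 (−0.34) and Hhip (−0.33), and higher for Meg3 (1.27), Prlr (1.2), Npy (1.10), Peg3 (1.08) and Ghr (0.46). The call of Ghr (adjusted p = 0.047) was lost without mouse 1, 3, 4, 5 or 6 (adjusted p from 0.0687 to 0.0914). Against 12 weeks 11 key genes differed: Igf2 (−2.48), H19 (−1.61), Cdkn1c (−1.07), Dlk1 (−0.76), Igf2bp3 (−0.47; 0.10 under median centring), Hmga2 (−0.29) and Hhip (−0.20; 0.18 under median centring) were lower at 10 days, and Npy (1.75), Prlr (1.15), Peg3 (0.81) and Meg3 (0.79) were higher. The call of Hhip against 12 weeks was also lost without mouse 1 (adjusted p = 0.125), mouse 5 (0.085) or mouse 6 (0.102).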

How the results depend on the processing

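Counts of 2-fold calls depended on the normalization: median centring gave 788 higher and 202 lower, processed signals 1533 and 1206, deposited values 1533 and 1205, and a normexp offset of 16 gave 663 lower. Slide 1 alone called 2029 genes higher and 2182 lower, and slide 2 alone 1237 and 1062; both have fewer arrays. The 4-week difference on slide 2 alone had 2659 higher and 2510 lower. Without 1 mouse in turn, calls ran from 3163 to 4078 higher and from 3025 to 3676 lower, and 2-fold calls from 252 to 343 and from 378 to 478.

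Of 175 called named genes, 160 kept sign and call in every alternative apart from the slides alone, and 1 reversed. Reversed 10-day ratios were Ptch1 (median centring −0.46), Gast (median centring −0.10, slide 2 alone −0.04), Ghr (median centring 0.34, mean over probes 0.11, processed and deposited values 0.07, without mouse 2 0.07, slide 2 alone 0.03) and Meg3 (scaling between arrays −0.07, slide as a random block −0.02, slide 1 alone −0.14, and between −0.10 and −0.03 without mouse 1, 5 or 6, with −0.04 without mouse 5). Reversed age differences were Ptch1 against 4 weeks (median centring −0.69) and, against 12 weeks, Igf2bp3 (0.10), Ghr (−0.10), Gast (−0.23) and Hhip (0.18) under median centring, and Gast without mouse 4 (−0.01). The causes were not tested. Of 32 lists, 19 medians kept their sign in all 17 alternatives.

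Replicate numbers name samples and do not pair them: 12 pair correlations ran from −0.32 to 0.61, 4 of them over 0.1. With the replicate block, 4908 genes were higher and 4297 lower at 10 days than at 4 weeks, and 3842 and 4269 against 12 weeks; among the key genes it ended the call of Hhip against 12 weeks (−0.20, adjusted p = 0.0529) and no other. As a random block, slide (correlation −0.174 at 10 days) gave 5761 and 5151, and 4959 and 5469. Signal near background limits ratios of dim genes, and the single pool per age leaves control spread unmeasured.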
